A study of Mus musculus with 4 samples.

Results

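The 9 genes described here build the myelin sheath and were chosen by name: Mbp, Mog, Mag, Mobp, Cnp, Cldn11, Mal, Opalin and Ugt8a. The deposited tables list 23475 genes, among them 8 of these 9, and 7 had enough reads for a test. The libraries hold mRNA of astrocytes taken from mouse cerebral cortex on postnatal day 5. The KO group held 2 libraries from mice labelled PD1cKO-Cx3, in which the labels describe a conditional deletion of PD-1, an inhibitory immune receptor encoded by Pdcd1. The WT group held 2 libraries from PD1fl/fl mice, which carry the floxed gene. The labels do not spell out the Cx3 driver, nor do they tie the libraries of a group to separate animals, and each p-value therefore reflects library-to-library spread alone. The series title names myelination, and the comparison asks whether transcripts of the sheath differ when PD-1 is deleted.

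Myelin is the stacked membrane that oligodendrocytes wrap around axons to speed conduction. Precursors leave the cell cycle, pass through a newly formed stage, and then switch on the genes of the compact membrane, its adhesion proteins and its galactolipids together, under transcription factors such as SOX10 and MYRF. In the mouse cortex this programme has barely begun in the days after birth. Astrocytes do not build myelin, and an astrocyte preparation can hold cells of the oligodendrocyte lineage. In bulk RNA, fewer cells of a type and less RNA per cell cannot be told apart.

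Gene counts summed to between 14224519 and 16961160 per library, and between 19199 and 21583 genes had a count. WT replicate 2 had the lowest of both values. Pdcd1 had 20 counts in the library labelled KO 2 and 0 in both WT libraries, and it was not listed for the library labelled KO 1, which leaves at most 4 counts, so it does not check the group labels. Ddx3y, which is Y-linked, had 2472 counts in KO replicate 2 against 0 in both WT libraries, and it was not listed for KO replicate 1. Xist had 6778 and 0 counts in the KO libraries against 6732 and 8564 in the WT libraries. KO replicate 2 thus had the pattern of male cells and the other libraries that of female cells. Sex therefore differed within the KO group, lay partly along the groups and was not in the fit. All 12 astrocyte markers were counted in every library, and their summed level was 11750 and 10098 CPM (counts scaled to the size of the library) in KO libraries and 11294 and 11082 CPM in WT libraries. Transcripts of other cells were present too: the sum over 12 neuronal genes was 2743 and 2963 CPM in KO libraries and 2836 and 3261 CPM in WT libraries, and that over 13 precursor genes 5014 and 4910 CPM in KO libraries and 5601 and 4937 CPM in WT libraries. Most of the precursor sum came from Ptprz1, with 3250 and 3068 CPM in KO libraries and 3844 and 3490 CPM in WT libraries. Pdgfra had 293 and 339 CPM in KO libraries and 278 and 274 CPM in WT libraries. These sums do not measure the purity of the preparation or its content of precursor cells. Microglial transcripts moved with the groups. All 14 genes of the microglia and macrophage list had both KO libraries above both WT libraries, as did 21.2% of all genes tested. The summed level of the 14 was 4664 and 3942 CPM in KO libraries against 877 and 1262 CPM in WT libraries. The summed level of 10 endothelial genes was 566 and 285 CPM in KO libraries against 174 and 67.4 CPM in WT libraries.

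Promoter sequences were available from RefSeq (GRCm38.p6) for 8 of the 9 genes, and 4 are shown as examples of large and small spread between libraries. Mag and Mal were nearly absent from a single WT library, Cnp varied least, and Mog stands between them, as do Cldn11 and Ugt8a, which are not shown. Each window runs 5′ to 3′ on the gene's strand, from 250 bases before the transcription start to 50 after it. Capitals mark the letters CTGGCAC or CTGGTAC, a core bound by MYRF, and ACAATG or ACAAAG, a core bound by SOX proteins, on both strands. The windows lie at chr7:30914814-30915113, minus strand, for Mag, at chr2:127656646-127656945, minus strand, for Mal, at chr17:37023349-37023648, minus strand, for Mog, and at chr11:100574689-100574988, plus strand, for Cnp.
Mag: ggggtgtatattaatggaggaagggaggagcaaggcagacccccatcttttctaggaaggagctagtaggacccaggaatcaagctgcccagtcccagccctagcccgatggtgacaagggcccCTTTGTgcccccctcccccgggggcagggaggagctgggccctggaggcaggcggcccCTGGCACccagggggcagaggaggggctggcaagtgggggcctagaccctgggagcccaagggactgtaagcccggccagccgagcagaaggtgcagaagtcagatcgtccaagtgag
Mal: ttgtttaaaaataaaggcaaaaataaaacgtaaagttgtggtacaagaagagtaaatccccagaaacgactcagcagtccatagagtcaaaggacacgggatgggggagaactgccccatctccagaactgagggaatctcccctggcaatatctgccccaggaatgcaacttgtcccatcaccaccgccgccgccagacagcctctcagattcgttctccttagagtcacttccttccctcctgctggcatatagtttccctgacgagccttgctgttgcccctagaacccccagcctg
Mog: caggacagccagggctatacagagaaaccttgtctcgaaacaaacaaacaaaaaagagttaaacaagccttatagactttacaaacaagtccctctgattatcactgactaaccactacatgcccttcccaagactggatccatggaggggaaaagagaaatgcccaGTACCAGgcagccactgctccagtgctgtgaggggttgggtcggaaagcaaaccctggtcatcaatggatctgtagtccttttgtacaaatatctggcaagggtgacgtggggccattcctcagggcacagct
Cnp: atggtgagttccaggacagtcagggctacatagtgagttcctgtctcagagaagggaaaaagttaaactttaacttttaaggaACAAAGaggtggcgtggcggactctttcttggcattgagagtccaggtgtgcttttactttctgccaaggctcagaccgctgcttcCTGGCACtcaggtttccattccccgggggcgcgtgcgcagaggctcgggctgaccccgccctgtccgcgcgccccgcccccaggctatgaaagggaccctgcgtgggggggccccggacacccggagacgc
Mag and Cnp each held 1 match to the MYRF letters and 1 to the SOX letters, Mog held 1 match to the MYRF letters, and Mal held neither. Over all 32851 promoters of the same length, 7.10% held a match to the MYRF letters and 28.6% a match to the SOX letters. Mobp held 6 matches to the SOX letters, Opalin 2 matches to the SOX letters and 1 to the MYRF letters, and Cldn11 and Ugt8a none to either. A match is a run of letters and was not tested as a binding site.

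Mbp, Mog, Mag and Ugt8a had higher levels in both KO libraries than in both WT libraries, Cnp, Cldn11 and Mal overlapped between the groups, and no difference passed the test over all genes. Of the 7 tested genes 0 passed at an adjusted p of 0.05 (edgeR quasi-likelihood test, Benjamini-Hochberg adjustment over 17696 genes), where 0.017% of all genes tested did. At an unadjusted p under 0.05 there were 2, Mbp and Ugt8a, where 8.29% of all genes had such a p. DESeq2 called 1, Mbp, with 2.14% of all genes called, and limma-voom called 0, with 0.158% called. Fitted log2 fold changes of KO over WT ran from 0.16 for Cnp to 1.20 for Mal, with a median of 0.85, beside a median of 0.00 over all genes tested. Each of the 7 was above 0, as were 50.0% of all genes tested. Both KO libraries lay above both WT libraries for 4 of the 7, as they did for 21.2% of all genes tested.

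**Figure D1:**
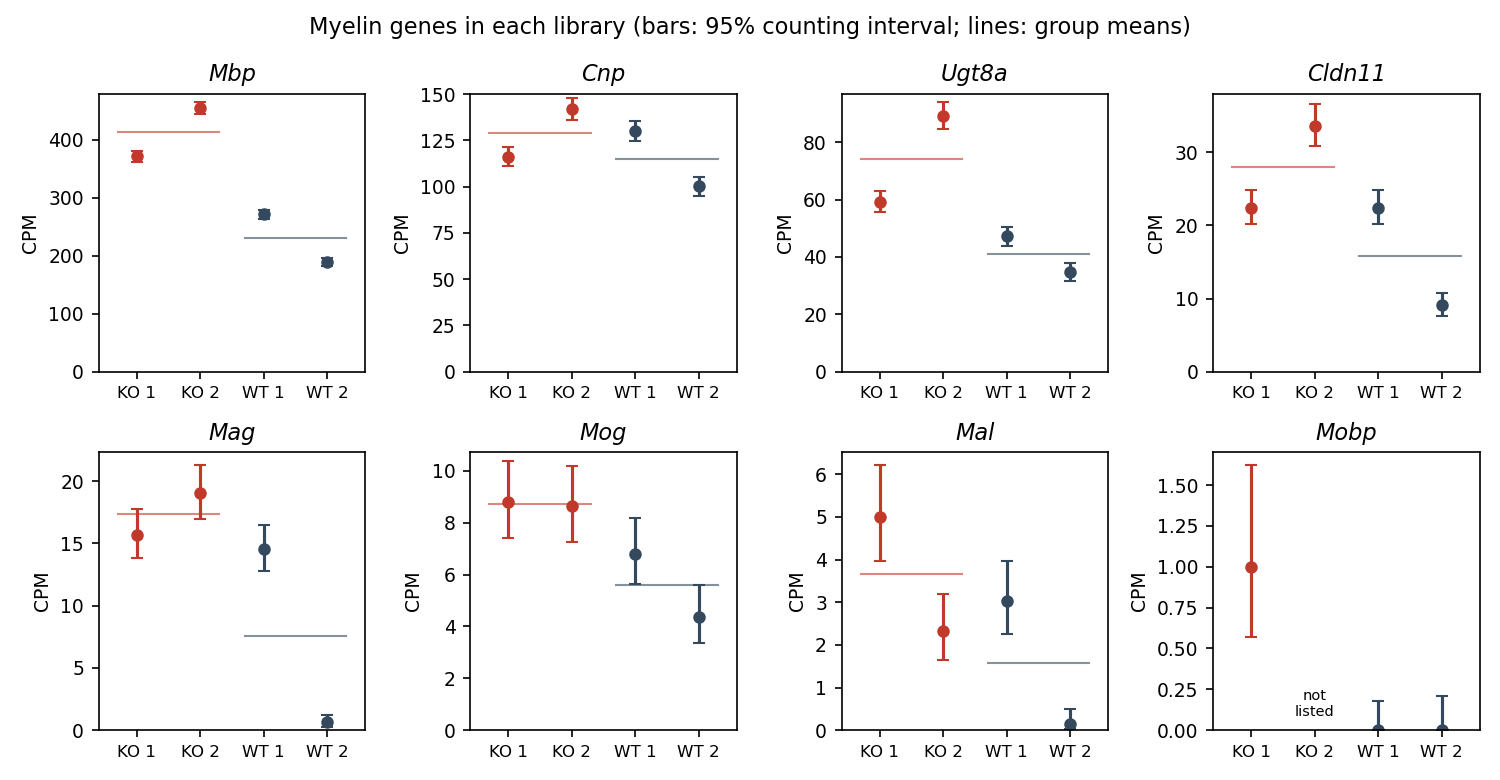
CPM of 8 myelin genes in each library, with KO libraries in red and WT libraries in dark blue; bars are exact 95% binomial intervals that cover counting error only (up to 3 counts for a count of 0), and lines are group means. WT replicate 2 was the lowest library for each of the 7 tested genes, and it held 0.625 CPM of Mag and 0.139 CPM of Mal.

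Mbp encodes myelin basic protein, which sits on the inner face of the membrane and holds its layers together. It had 371 and 455 CPM in KO libraries, against 271 and 189 CPM in WT libraries. The groups did not overlap, yet the WT libraries differed from each other 1.44-fold. The KO level was 1.80-fold the WT level, at 413 ± 59.0 CPM in KO libraries and 229.8 ± 58.3 CPM in WT libraries (mean ± SD, n = 2 each). The log2 fold change was 0.85 ± 0.21 (SE), which did not pass in edgeR (adjusted p = 0.37) and passed in DESeq2 (adjusted p = 0.0022; range over the alternatives 0.0022 to 0.89). With WT replicate 1 left out it was 1.13, and with WT replicate 2 left out 0.61. The Mbp locus (chromosome 18, 82475146 to 82585637, GRCm38) also makes Golli transcripts from an upstream start, and gene counts do not separate them from those of the sheath protein.

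Mobp encodes another basic protein of compact myelin. It had 16 counts in KO replicate 1, or 0.998 CPM (exact 95% interval 0.571 to 1.62). Both WT libraries held 0 of its counts, and the limit for a count of 0 is 3 counts, which equals 0.177 CPM for WT replicate 1 and 0.208 CPM for WT replicate 2. It was not listed for KO replicate 2, which leaves room for at most 4 counts there. Its reads were thus counted in a single KO library, and it had too few for a test. Opalin, a membrane glycoprotein of mature oligodendrocytes, was not listed in any table, so no library held more than 4 of its counts. Mal encodes a small lipid-raft proteolipid of myelin that also occurs in epithelia and T cells. It had 80 and 38 counts in KO libraries and 51 and 2 in WT libraries, which is 4.99 and 2.33 CPM in KO libraries and 3.02 and 0.139 CPM in WT libraries. KO replicate 2 lay below WT replicate 1, so the groups overlapped, and the log2 fold change of 1.20 had an SE of 1.35 (adjusted p = 0.92).

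Cldn11 encodes claudin-11, the tight junction strand between the lamellae. Its level was 22.4 and 33.7 CPM in KO libraries and 22.4 and 9.09 CPM in WT libraries. WT replicate 1 lay marginally above KO replicate 1, so the groups overlapped. The fitted log2 fold change was 0.83 ± 0.48 (SE, adjusted p = 0.75), with 1.63 when WT replicate 1 was left out and 0.32 when WT replicate 2 was.

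Mag encodes myelin-associated glycoprotein, an adhesion protein on the inner, axon-facing membrane. It had 251 and 311 counts in KO libraries, against 246 and 9 counts in WT libraries. These were 15.7 and 19.0 CPM in KO libraries, against 14.6 and 0.625 CPM in WT libraries. The WT libraries thus differed 23.3-fold while the KO libraries differed 1.22-fold, and 3 of the 4 libraries lay close together. The fitted log2 fold change was 1.19 ± 1.15 (SE, adjusted p = 0.89), which became 4.78 with WT replicate 1 left out and 0.26 with WT replicate 2 left out. Among 12190 genes with a mean of at least 5 CPM, 38 (0.312%) were at least as far above WT replicate 2 in WT replicate 1 as Mag was. Mal could not be placed on that scale, since its mean was under 5 CPM, but its WT libraries differed 21.7-fold.

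Mog encodes myelin oligodendrocyte glycoprotein, which lies on the outermost surface of the sheath and appears late in maturation. It had 141 counts in each KO library and 115 and 63 counts in WT libraries. That was 8.80 and 8.63 CPM in KO libraries, against 6.80 and 4.37 CPM in WT libraries. The KO libraries were nearly equal and both lay above the WT libraries, at a fitted log2 difference of 0.64 ± 0.46 (SE, adjusted p = 0.82), or 1.00 with WT replicate 1 left out and 0.36 with WT replicate 2 left out. The exact 95% counting intervals of KO replicate 1 (7.41 to 10.4 CPM) and WT replicate 1 (5.62 to 8.17 CPM) overlapped.

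Cnp encodes the phosphodiesterase of non-compact myelin, which also appears before the sheath forms. Its level was 116 and 142 CPM in KO libraries and 130.1 and 100.2 CPM in WT libraries. The libraries of both groups interleaved, and the log2 fold change was 0.16 ± 0.19 (SE, adjusted p = 0.92). Without WT replicate 2 it was -0.01. Exons of Cnp (chromosome 11, 100574904 to 100591729) overlap those of Dnajc7 on the opposite strand, which had 2972 and 3316 counts in KO libraries and 3473 and 3072 in WT libraries. The sources used here do not say if strand was used in counting, so reads of the overlap cannot be assigned.

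Ugt8a encodes ceramide galactosyltransferase, which makes galactosylceramide, the main glycolipid of myelin. It had 59.3 and 89.2 CPM in KO libraries, against 47.2 and 34.7 CPM in WT libraries. Both KO libraries lay above both WT libraries, and KO replicate 2 was 1.51-fold above KO replicate 1. The KO level was 1.81-fold the WT level (log2 fold change 0.86 ± 0.28 SE, edgeR adjusted p = 0.48), with 0.53 when KO replicate 2 was left out and 1.13 when KO replicate 1 was. Among 13 genes of the pathway around it, which build ceramide, lengthen and hydroxylate its fatty acid, sulfate the galactolipid or break it down, 0 passed in either direction. Their median log2 fold change was 0.06, with 8 of 13 above 0. Both KO libraries lay above both WT libraries for 5 of the 13 (21.2% of all genes tested) and below for 3 (18.4%). Fa2h, the fatty acid 2-hydroxylase of myelin galactolipids, had 17.0 and 14.6 CPM in KO libraries, against 14.2 and 7.36 CPM in WT libraries (log2 fold change 0.55 ± 0.42 SE, adjusted p = 0.84). Cers2, which makes very long chain ceramides, had a log2 fold change of 0.18 ± 0.12, and Psap, the precursor of saposins that help degrade sphingolipids, one of 0.16 ± 0.06. Gal3st1, which sulfates galactosylceramide, had 1.81 and 2.02 CPM in KO libraries and 2.60 and 2.57 CPM in WT libraries, and was picked out after its values were seen.

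Scaled by exon length (the union of annotated exons, GENCODE M21), the order of mean levels over the 4 libraries was Mbp, Cnp, Ugt8a, Cldn11, Mog, Mag and Mal. Mbp averaged 38.0 ± 13.7 CPM per kilobase and Cnp 33.5 ± 4.94 (SD over 4 libraries), and their ranges overlapped: Mbp was above Cnp in both KO libraries and below it in both WT libraries. That crossing rests on the exon lengths used, 8469 bases for Mbp and 3639 for Cnp. The Mbp length was not limited to exons of the sheath protein, and in unscaled CPM Mbp was above Cnp in every library. Ugt8a followed at 12.7 ± 5.14 CPM per kilobase, with a range below that of Cnp. Ugt8a and Cldn11, at 11.7 ± 5.38, did not differ beyond their spread. Mog averaged 4.20 ± 1.21, Mag 3.06 ± 2.00 and Mal 0.943 ± 0.721 CPM per kilobase, and although neighbouring ranges overlapped, each gene from Cldn11 down to Mag lay above the next in 4 of 4 libraries.

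The difference depended on which WT library the KO libraries were set against. Both KO libraries lay above WT replicate 2 for 7 of 7 tested genes (40.0% of all genes tested) and above WT replicate 1 for 4 of 7 (36.9% of all genes tested). Over the same 7 genes the median log2 fold change was 0.32 when WT replicate 2 was left out and 1.13 when WT replicate 1 was, and 0 of the 7 passed in either fit (edgeR). In the authors' deposited tables, which compare single libraries, a gene is labelled significant when it differs at least 2-fold with a p under 0.05. That label fell on 1 of 8 listed myelin genes for KO 1 over WT 1 (29.7% of all genes in that authors' deposited table) and on 0 of 7 for KO 2 over WT 1 (27.6%). In the authors' deposited tables against WT 2 it fell on 4 of 8 genes for KO 1 (31.6% of all genes) and on 5 of 7 for KO 2 (29.5%). Over the genes with a mean of at least 5 CPM, 10.2% differed at least 2-fold between the WT libraries and 4.61% between the KO libraries.

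**Figure D2:**
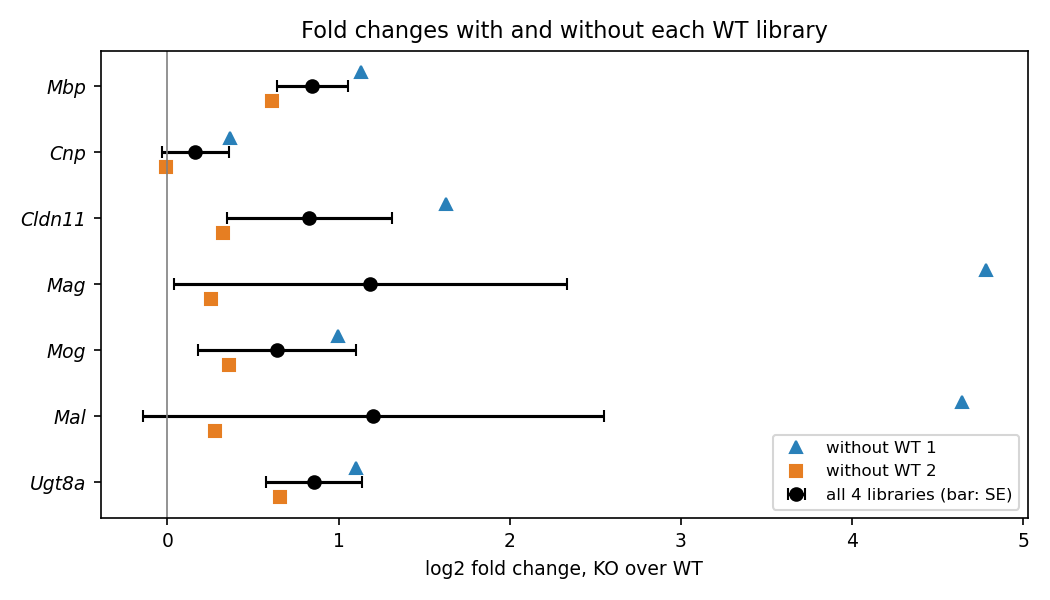
Log2 fold change of KO over WT for the 7 tested myelin genes, with all 4 libraries (black, bar is the SE), without WT replicate 1 (triangles) and without WT replicate 2 (squares). Mag ran from 0.26 without WT replicate 2 to 4.78 without WT replicate 1, while Mbp ran from 0.61 to 1.13.

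Other genes of mature oligodendrocytes varied more among themselves. From a list of 30 other myelin and mature oligodendrocyte genes 24 were tested, and 0 passed in either direction. At an unadjusted p under 0.05 there were 6 (edgeR, 8.29% of all genes tested). Log2 fold changes were above 0 for 18 of 24 (50.0% of all genes tested), with a median of 0.28. Both KO libraries lay above both WT libraries for 12 of the 24 (21.2% of all genes tested) and below for 2 (18.4%). Trf, the transferrin of oligodendrocytes, had counts in KO libraries only and passed the filter through them, and the median of the other 23 was 0.25. Sirt2, a deacetylase of the myelin sheath, had 536 and 595 CPM in KO libraries and 420 and 412 CPM in WT libraries (log2 fold change 0.44 ± 0.11 SE, edgeR adjusted p = 0.35), and Cd9, a tetraspanin, had a log2 fold change of 0.17 ± 0.12. Ermn, a late cytoskeletal gene of oligodendrocytes picked out after its values were seen, was lower in both KO libraries, with 1.81 and 2.2 CPM in KO libraries against 7.45 and 8.47 CPM in WT libraries (log2 fold change -1.98 ± 0.53 SE, adjusted p = 0.42). Evi2a and Plxnb3, picked out in the same way, went in the opposite and more frequent direction of this list. Their log2 fold changes were 2.12 ± 0.45 and 1.45 ± 0.28 (SE, edgeR adjusted p = 0.31 and 0.26).

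**Figure D3:**
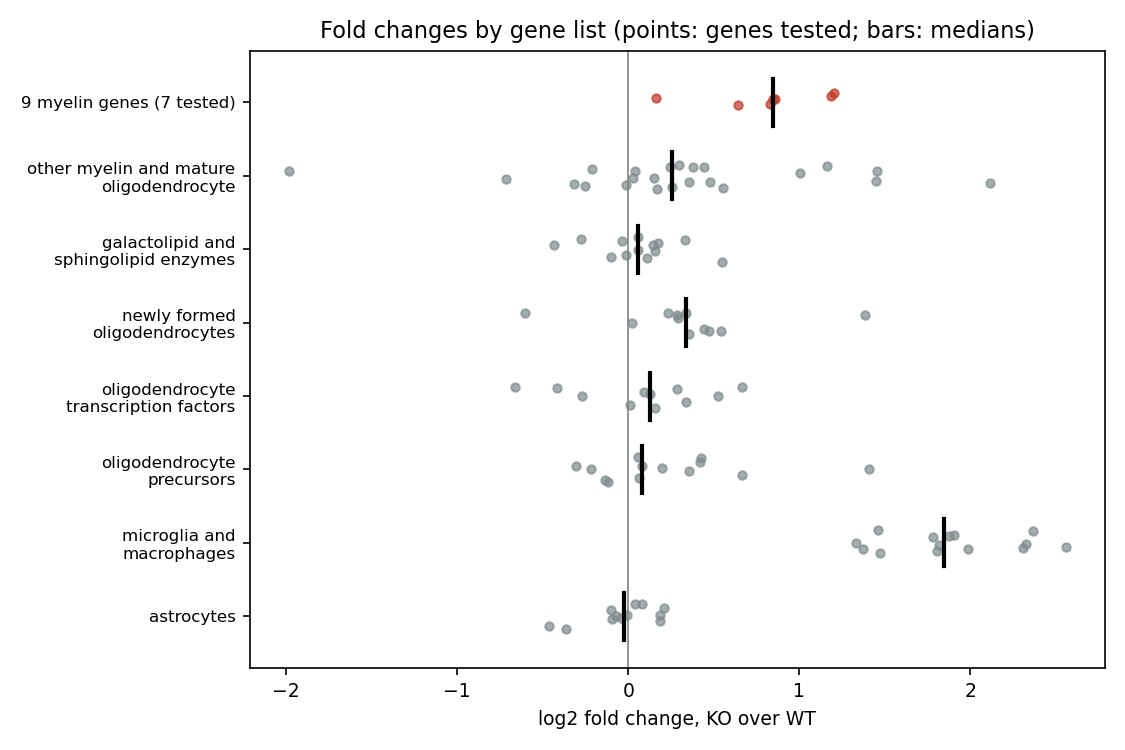
Log2 fold change of KO over WT for each tested gene (points) of the 9 myelin genes, 5 lists of the oligodendrocyte lineage, the microglia and macrophage list and the astrocyte list, with the median of each as a bar; Trf, with counts in KO libraries only, is left out. The median was 0.85 for the myelin genes, 1.84 for microglia and macrophages and -0.02 for astrocytes.

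Lists of earlier steps of the lineage had medians nearer 0 than the 0.85 of the 7 tested myelin genes, in no steady order by stage. The lists share genes, so their medians are not independent. The newly formed list shares Gpr17 with the precursors, Sirt2 with the mature genes, and Tcf7l2 and Nkx2-2 with the transcription factors. The 13 precursor genes had a median log2 fold change of 0.08 (range -0.30 to 1.41). The 11 tested transcription factors had one of 0.13 (range -0.66 to 0.66), and 0 passed in either list. The most abundant of them, Ptprz1 and Cspg5 of precursors and Olig1 and Zfp24 of the factors, had log2 fold changes of -0.22, 0.06, 0.16 and -0.27. Newly formed oligodendrocyte genes had a median of 0.33 (range -0.60 to 1.38), beside 0.28 for the other mature oligodendrocyte genes. Of these newly formed genes 10 of 11 were above 0 (50.0% of all genes tested) and 0 passed. Their most abundant members were Sirt2 and Gpr17, a receptor of the transition stage, at 0.35 ± 0.23 (SE). Of 8 Schwann cell genes of peripheral nerve 4 were tested and 0 passed, with Pmp22 at 0.12 and Drp2 at 0.21.

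Sox10, the transcription factor present from precursors to mature oligodendrocytes, had 145.8 and 140.6 CPM in KO libraries, against 86.6 and 94.1 CPM in WT libraries (log2 fold change 0.66 ± 0.14 SE, edgeR adjusted p = 0.31). DESeq2 called Sox10 and Sirt2. Myrf, picked out after its values were seen, had 2.81 and 5.88 CPM in KO libraries and 8.34 and 5.41 CPM in WT libraries. Its groups overlapped, with a log2 fold change of -0.66 ± 0.60 (SE, edgeR adjusted p = 0.88). Set against Sox10, neither the summed myelin genes nor Mbp separated the groups. Sox10 was itself higher in both KO libraries, while Pdgfra of precursors and Olig1 had smaller log2 fold changes, 0.20 and 0.16. Ratios to these or other genes of the lineage were not computed, so the result holds for Sox10 alone and does not measure myelin RNA per cell. The summed level of the 7 genes was 598.6 and 749.5 CPM in KO libraries and 495 and 338 CPM in WT libraries, of which Mbp made up 62.0% and 60.7% in KO libraries and 54.7% and 55.8% in WT libraries. Divided by Sox10, that sum was 4.11 and 5.33 in KO libraries and 5.72 and 3.59 in WT libraries. The ratio of Mbp to Sox10 was 2.55 and 3.24 in KO libraries and 3.13 and 2.00 in WT libraries, and that of Cnp to Sox10 was 0.797 and 1.01 in KO libraries against 1.50 and 1.06 in WT libraries. Relative to Sox10, Cnp was lower in both KO libraries, but this ratio carries the higher Sox10 level there, since Cnp itself overlapped between the groups. The share of all genes whose ratio to Sox10 separates the groups was not computed.

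**Figure D4:**
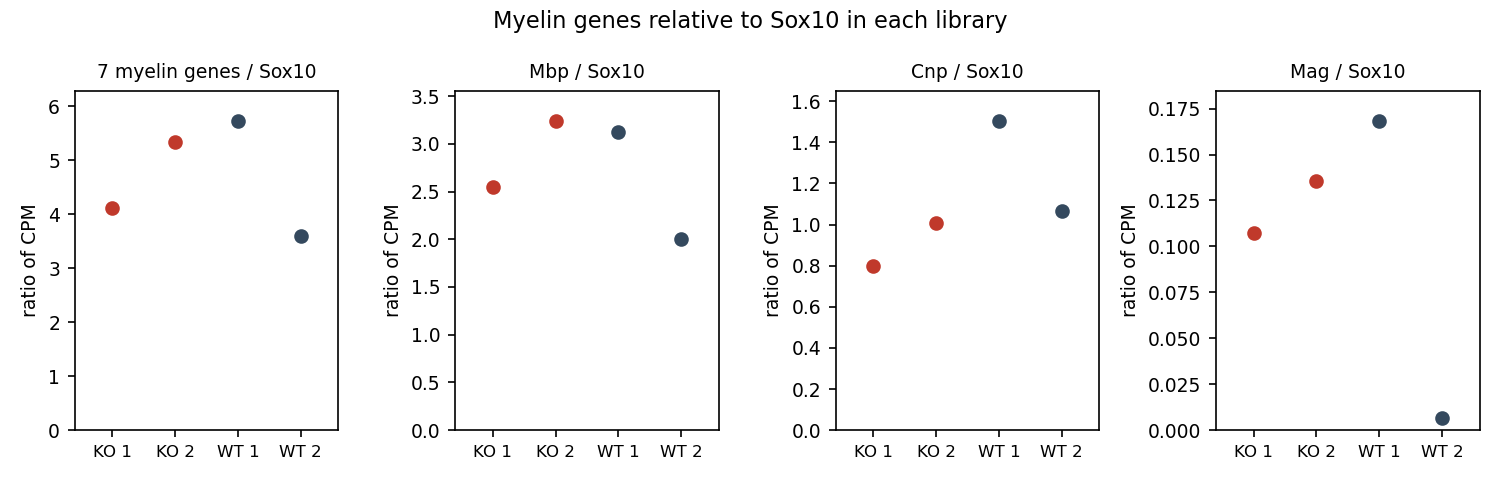
Ratio of CPM to that of Sox10 in each library for the sum of the 7 tested myelin genes, Mbp, Cnp and Mag (KO libraries red, WT libraries dark blue). The ratio of the sum was 4.11 and 5.33 in KO libraries and 5.72 and 3.59 in WT libraries, and the ratio of Mag was 0.00664 in WT replicate 2.

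The profile of the 7 genes over the libraries was compared with that of other genes as a description. Centred on its own mean, the average log2 level of the 7 was 0.54 and 0.67 in KO libraries and 0.28 and -1.48 in WT libraries. Of 12146 genes with a mean of at least 5 CPM, the 5 nearest by root mean square difference over the 4 libraries were Dgka at 0.07, Stat2 at 0.11, Chst15 at 0.12, Gm43677 at 0.13 and Gjb1 at 0.13. The 7 genes themselves lay farther from their average than these 5, from 0.26 for Cldn11 to 1.20 for Mal. The average is therefore not a profile that each of the 7 followed. Gjb1 encodes connexin-32, a gap junction protein of oligodendrocytes, and Stat2 a factor of the interferon response. Gjb1 had 9.05 and 8.63 CPM in KO libraries, against 5.86 and 2.01 CPM in WT libraries. Sox10 ranked 2015th on the same scale. Mag and Mal weigh on the low average of WT replicate 2, with centred log2 levels of -3.53 and -3.42 there, beside -0.69 for Mbp and -0.27 for Cnp.

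Beside the median log2 fold change of 0.85 over the 7 myelin genes stood medians of 1.84 over 14 microglial and 1.92 over 10 endothelial genes. P2ry12, a purinergic receptor of microglia, passed the test (log2 fold change 2.56 ± 0.16 SE, adjusted p = 0.029), though not when KO replicate 2 (adjusted p = 0.067) or WT replicate 1 (adjusted p = 0.055) was left out; it passed under each other alternative run. The 8 tested genes of pericytes and smooth muscle had a median of 0.38 and the 12 neuronal genes one of -0.18, and 0 of either passed. The part of the cell makeup in the myelin values was not tested.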

How the data were processed

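The 4 mRNA libraries of isolated cortical astrocytes fall into 2 groups, 2 labelled KO and 2 labelled WT. The authors deposited 4 tables of raw counts per gene, 1 for each KO and WT pair, per the file headers, with their own log2 fold change between the 2 libraries. The build mm9 and the tools HTSeq 0.6.0, TopHat2 2.0.12 and Bowtie2 2.2.3 are named, with no roles, per the submitters' processing notes. However, 21280 of 23475 gene positions (90.6%) equal GENCODE M21 on GRCm38, so coordinates are given on that build. The tables were joined by gene, with 0 disagreements between tables. A gene is listed where both libraries have a count or 1 has 0 and the other at least 5, so a missing count is at most 4 and was set to 0.

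Groups were compared with edgeR 4.0.16 (R 4.3.3; TMM, filterByExpr with a minimum count of 10, quasi-likelihood test, 2 residual degrees of freedom, common dispersion 0.204), with Benjamini-Hochberg adjustment over 17696 genes at 0.05. CPM use TMM-scaled library sizes. The scripts were tested on simulated data. Alternatives used DESeq2 1.42.0, limma-voom (limma 3.58.1), other scalings and filters, a replicate block, and each library left out. The rule for named genes took all 9 myelin genes, from each list the genes that passed or, failing that, its 2 most abundant, and genes fixed by name such as Sox10 and Fa2h; some of these are not reported here. The genes and lists were chosen with earlier results of these data known.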

Additional observations from a re-analysis of the deposited data

How the results depend on the processing

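The 7 tested myelin genes gave 90 values under the alternatives, of which 88 kept direction and side of the threshold. The exceptions were Mbp, which passed with DESeq2, and Cnp, which was -0.0099 without WT replicate 2 (range over left-out libraries -0.0099 to 0.37). With DESeq2 1 myelin gene passed, and under each other alternative 0 did. The median over the myelin genes tested under each alternative (8 with Mobp under some) ran from 0.34 without WT replicate 2 to 1.38 without WT replicate 1. Each lay within 0.71, the spread between replicates, of the main median of 0.85. That spread is nearly as large as the median, so lying within it does not show the median to be stable. The number of genes called over all was 3, and became 56 with no filter on low counts, 68 at a mean of at least 5 CPM, 378 with DESeq2 and 28 with limma-voom. It ran from 0 to 42 when a library was left out (leaving out KO replicate 1 gave 7 and KO replicate 2 gave 0, while leaving out WT replicate 1 gave 1 and WT replicate 2 gave 42). Among the other genes that the rule names, Sox10, Sirt2, Kdr and Rgs5 also passed with DESeq2, and log2 fold changes turned sign without KO replicate 1 for Cspg5 (-0.013 to 0.14 over left-out libraries) and Pmp22 (-0.019 to 0.24), without KO replicate 2 for Notch3 (-0.59 to 0.073) and Apoe (-0.18 to 0.15), and without WT replicate 2 for Olig1 (-0.063 to 0.42), Drp2 (-0.029 to 0.51) and Apoe (0.053). The cause was not tested. With the replicate number as a block edgeR called 4 genes and 0 myelin genes. The deviations of same-numbered libraries correlated at 0.041 over 17696 genes, so the numbers are not taken to pair the samples. Setting unlisted counts to their limit of 4, chosen after seeing the data, left 3 genes called. Low or missing counts limit Mobp and Opalin, and counts under 10 in WT replicate 2 limit Mag and Mal.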
